A study of Mus musculus with 34 samples.

Results

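CAD cells are a mouse cell line of catecholaminergic neuronal origin that stops dividing and grows neurites when serum is taken away. The response of these cells to serum withdrawal in the presence of added miR-138 was described here across all genes. The 4 libraries concerned were chosen by their labels: 2 libraries of CAD cells labelled mir-138 DKO, transfected with a miR-138 mimic and harvested 2 days after withdrawal, and 2 libraries of the same kind of cells harvested while still in serum. They are 4 of the 14 libraries of the third RNA-seq experiment and 4 of the 34 libraries of the series, which measured polyA RNA and small RNA of wild-type and mir-138 DKO cells with and without serum.

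Every group used here is labelled with the mir-138 DKO genotype, and no wild-type cells enter the comparison. The labels call these cells knockout lines. The mimics (miR-138 or miR-137, mirVana) were given at 3 nM with Lipofectamine RNAiMAX in medium with 10% serum, which was replaced 48 h later by medium with no serum. The reference groups are cells transfected with pUC19, a plasmid DNA used as control, and cells transfected with a miR-137 mimic, each with 2 libraries in serum and 2 libraries 2 days after withdrawal. Because the cells kept in serum were harvested at day 0 and the others at day 2, the libraries without serum were also harvested longer after transfection, and the effects of withdrawal and of time since transfection cannot be told apart. Whether the DKO cells are 1 clone, and whether the replicates came from separate cultures, is not given in the sources used here, so p-values measure the spread between libraries.

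As background, serum supplies growth factors, BMP ligands, iron and lipoprotein cholesterol. Its removal lets neuroblastoma-derived cells leave the cell cycle and take on neuronal features, and cells deprived of lipoprotein switch on SREBP2, the transcription factor of cholesterol synthesis. A microRNA pairs through its seed, bases 2 to 8, with sites in the 3′ ends of mRNAs and lowers those mRNAs and their translation. miR-138 is a brain-enriched microRNA with reported targets that include the small GTPase gene Rhoc, the depalmitoylase gene Lypla1 and the cyclin gene Ccnd1, and miR-137 is another neuronal microRNA with a different seed.

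The 2 mature sequences below are shown because their seeds (capitals, bases 2 to 8) define which mRNAs each mimic can pair with. The arm of the mimics is not given in the sources used here. The sequences are the guide arms in RefSeq (GRCm38.p6), where miR-138-5p lies within Mir138-1 at chr9:122682898-122682920 and Mir138-2 at chr8:94324312-94324334, both on the plus strand, and miR-137-3p lies within Mir137 at chr3:118433901-118433923, also on the plus strand. The 2 seeds differ.

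mmu-miR-138-5p: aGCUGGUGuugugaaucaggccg

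mmu-miR-137-3p: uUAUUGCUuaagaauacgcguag

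The next 4 sequences are promoters, shown because the gene groups they belong to carried 3 of the falls described further on. Hspa5 (chr2:34771840-34772139, plus strand) and Pdia6 (chr12:17266339-17266638, plus strand) encode a chaperone and a disulfide isomerase of the endoplasmic reticulum (ER). In them the capitals mark the ER stress response element, searched as CCAAT and CCACG with any 9 bases between them. Cdc6 (chr11:98907901-98908200, plus strand) encodes a loader of the replicative helicase, and the capitals mark an E2F motif, searched as TTTCCCGC and found here on the opposite strand. Cdc20 (chr4:118437294-118437593, minus strand) encodes an activator of the anaphase-promoting complex, and the capitals mark the cell cycle homology region motif, searched as TTTGAA. Each window is 300 bases long, from 250 before the start of the gene to 50 after it, in RefSeq's GRCm38.p6, and every search covered both strands.

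Hspa5 promoter: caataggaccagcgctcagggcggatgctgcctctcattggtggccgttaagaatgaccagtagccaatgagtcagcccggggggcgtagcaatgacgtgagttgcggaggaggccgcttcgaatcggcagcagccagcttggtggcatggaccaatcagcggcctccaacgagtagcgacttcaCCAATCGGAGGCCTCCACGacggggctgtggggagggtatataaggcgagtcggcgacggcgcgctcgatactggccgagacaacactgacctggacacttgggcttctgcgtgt

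Pdia6 promoter: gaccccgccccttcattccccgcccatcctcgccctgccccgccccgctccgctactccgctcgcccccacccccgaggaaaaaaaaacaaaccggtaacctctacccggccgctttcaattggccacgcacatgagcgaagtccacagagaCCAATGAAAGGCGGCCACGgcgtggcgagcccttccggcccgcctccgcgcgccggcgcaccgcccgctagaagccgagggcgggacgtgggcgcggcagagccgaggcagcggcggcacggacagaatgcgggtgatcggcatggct

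Cdc6 promoter: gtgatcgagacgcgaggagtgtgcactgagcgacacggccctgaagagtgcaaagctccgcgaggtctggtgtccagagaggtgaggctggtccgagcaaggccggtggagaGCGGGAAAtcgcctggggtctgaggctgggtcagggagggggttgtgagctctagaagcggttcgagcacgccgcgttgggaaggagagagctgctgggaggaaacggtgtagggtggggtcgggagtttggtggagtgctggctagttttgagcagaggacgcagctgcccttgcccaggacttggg

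Cdc20 promoter: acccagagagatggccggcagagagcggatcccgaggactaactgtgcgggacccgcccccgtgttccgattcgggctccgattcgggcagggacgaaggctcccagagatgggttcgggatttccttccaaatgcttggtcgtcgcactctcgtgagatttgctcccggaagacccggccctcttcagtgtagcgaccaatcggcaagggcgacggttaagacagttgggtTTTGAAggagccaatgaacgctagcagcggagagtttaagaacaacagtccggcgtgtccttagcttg

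A gene was counted as having a motif if any of its windows matched. The ER stress response element was present in 8 of the 17 ER chaperone genes with a window in the RefSeq table (47.1%). Of all 27025 gene symbols with a window, 0.137% had it. The E2F motif was present in 5 of 28 DNA replication genes (17.9%) and in 1.24% of all symbols. The short TTTGAA motif was present in 20 of 29 mitosis genes (69.0%) and in 20.2% of all symbols. The E2F motif and TTTGAA share their first 3 letters and no motif contains another, and a match is only a description of the letters in the window.

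Reads assigned to genes numbered 24299851 and 25582125 in the miR-138 serum libraries and 15386337 and 13040692 in the 2-day libraries. In the experiment as a whole they ran from 12740836 to 25582125, and replicates correlated at 0.9931 to 0.9956 (Pearson's r across genes of log2 CPM, counts scaled to a library total of 1e+06). Of all reads 27.63 to 32.19% named no gene. On the first principal component (47.6% of the variance) the miR-138 serum libraries lay at -5.9 and -5.5, between the other serum libraries (-49.3 to -33.7) and all 2-day libraries, of which the miR-138 pair had the highest values, 62.6 and 67.1. The share of reads from mitochondrially encoded genes moved with withdrawal in these cells, from 1.60 and 1.61% in serum to 2.39 and 2.28% at 2 days, and was 1.45 and 1.69% in the pUC19 libraries at 2 days. Its part in the results was not tested.

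The labels were checked against genes that define the line. Dbh, the gene of the enzyme that makes noradrenaline, had 9.41 and 9.93 CPM in serum and 16.9 and 19.8 CPM at 2 days, and Hand2, a transcription factor of sympathetic neurons, had 602 and 592 CPM in serum and 890.3 and 1002 CPM at 2 days. Th, the gene of tyrosine hydroxylase, was near 0, with 2 and 0 reads in serum and 13 and 9 reads at 2 days, a ratio of 19.1 in CPM (exact 95% counting interval 4.69 to 167). The noradrenergic factors were thus measured well, while the rate-limiting enzyme of catecholamine synthesis was almost absent in serum. The knocked-out genes were checked as well. The Mir138-1 hairpin gene had 24 and 32 reads in serum and 43 and 40 reads at 2 days with miR-138, 18 and 15 and then 30 and 29 reads with pUC19, and 18 and 16 and then 22 and 34 reads with miR-137, and Mir138-2 had 0 reads with miR-138. With miR-138 the Mir138-1 reads were 0.945 and 1.19 CPM in serum and 2.64 and 2.88 CPM at 2 days. Reads over an annotated Mir138-1 thus go against a loss of that whole stretch in these libraries. Which bases the knockout removed is not given in the sources used here, so the deletion itself was not checked and the DKO genotype rests on the labels. These reads do not measure the mature miR-138 or the mimic.

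Serum withdrawal changed 8013 of 12655 genes tested in the cells with miR-138 (63.3%, edgeR's quasi-likelihood test, Benjamini-Hochberg adjusted p under 0.05). Of these, 3938 rose (31.1%) and 4075 fell (32.2%). These shares are the background for every list count with miR-138 below. Of all genes, 13.3% had a higher and 14.5% a lower response with miR-138 than with pUC19. Against miR-137 the same shares were 13.9% and 16.9%. Large changes were mostly rises: 1206 genes rose at least 2-fold (9.53%) and 338 fell at least 2-fold (2.67%). The CPM of the serum and 2-day libraries did not overlap for 10335 genes (81.7%), and the median log2 fold change over all genes tested was 0.005. Withdrawal changed 7552 genes under pUC19 (59.7%) and 8329 under the miR-137 mimic (65.8%). These comparisons share no libraries with the miR-138 comparison. Of the genes that rose with miR-138, 2530 also rose under pUC19, which is 64.2% of the miR-138 list and 70.5% of the pUC19 list, and of those that fell, 2856 also fell, which is 70.1% and 72.0%.

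**Figure D1:**
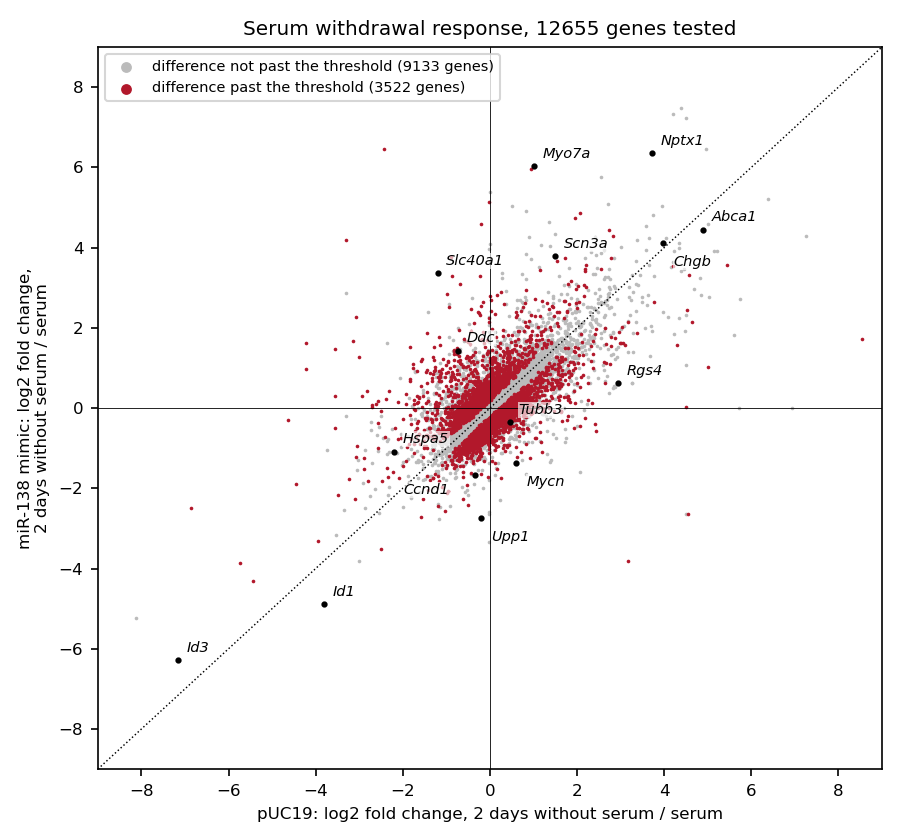
Each point is 1 of the 12655 genes tested, with its log2 fold change on withdrawal under pUC19 (x axis) and under the miR-138 mimic (y axis), 2 libraries against 2 in each; red points are the 3522 genes whose 2 responses differed at an adjusted p under 0.05, and the dotted line marks equal responses. The labelled genes Slc40a1 (3.36 under miR-138, -1.20 under pUC19) and Upp1 (-2.75 and -0.20) lie far from that line, and Abca1 and Chgb near it.

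The largest falls were in the Id genes, whose products bind basic helix-loop-helix factors and hold back differentiation. Id1 had 51.6 and 53.4 CPM in serum and 1.66 and 1.87 CPM at 2 days. Both serum libraries lay far above both 2-day libraries, a log2 fold change of -4.90 ± 0.10 (SE, adjusted p = 1.3e-17). Values with an SE or an adjusted p in parentheses below are log2 fold changes from edgeR's test, unless named as a difference of responses. Id3 had 25.9 and 31.7 CPM in serum and 0.49 and 0.216 CPM at 2 days and Id2 26.0 and 22.9 CPM in serum and 0.981 and 1.51 CPM at 2 days, again with no overlap between the groups, and fell by 6.28 and 4.31 on the log2 scale. The Id genes are direct targets of BMP signalling, and of the 15 tested genes of the Id and BMP list 9 fell and 1 rose, with a median of -0.81. The other falls included Smad7, an inhibitor of the pathway, at -1.32, and Atoh8, a helix-loop-helix factor, at -2.49. Bmp7, which encodes a BMP ligand, was the gene that rose, from 1.85 and 1.30 CPM to 9.13 and 10.4 CPM (2.63 ± 0.19 SE, adjusted p = 3.96e-10). Under pUC19 Id1 fell by 3.81, and the fall with miR-138 was larger by a difference of responses of -1.09 ± 0.17 (SE, adjusted p = 7.99e-05). The other Id genes did not share this: the fall of Id2 was smaller with miR-138, by 1.14 ± 0.35 (SE, adjusted p = 0.0207), a difference not past the threshold without the second miR-138 library at 2 days (0.81, adjusted p = 0.219) or the second pUC19 library at 2 days (0.85, adjusted p = 0.103), and for Id3 the difference was 0.87 ± 0.62 (SE, adjusted p = 0.318). Over the Id and BMP list 9 genes fell with pUC19 and with miR-137 too, with medians of -0.93 and -1.38, and the response with miR-138 was higher than with pUC19 for 3 genes and lower for 2. The first of these counts was 1 without the second 2-day library of miR-138 or of pUC19.

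The other large falls came from genes of varied function. Hmox1, which encodes the haem-degrading heme oxygenase 1, had 106.3 and 112 CPM in serum and 9.62 and 12.5 CPM at 2 days, and all 2-day values lay well below the serum values (-3.31 ± 0.09 SE, adjusted p = 3.75e-16). Myrip, an organelle-transport adaptor gene, had 197 and 192 CPM in serum and 29.5 and 29.5 CPM at 2 days, nearly the same in replicates and again without overlap (-2.72 ± 0.07 SE, adjusted p = 4.01e-16). Tnfrsf12a, the gene of a receptor of the TNF family, had 103 and 97.1 CPM in serum and 15.4 and 18.5 CPM at 2 days (-2.57 ± 0.13 SE, adjusted p = 1.87e-12). Pop1, a subunit gene of the RNases P and MRP, fell from 74.6 and 74.0 to 18.0 and 15.8 CPM. Galnt5, Dock2, Nsg2, Ptprn, Tlx2, Dusp2 and Crip1 completed the 14 largest falls, with log2 fold changes between -3.87 (Galnt5) and -2.05 (Crip1).

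By difference in CPM, the falls were led by Actb, which encodes cytoplasmic actin, and Fth1, which encodes the ferritin heavy chain. Actb had 4025 and 3932 CPM in serum and 2719 and 2711 CPM at 2 days, and Fth1 had 2835 and 2835 CPM in serum and 1583 and 1608 CPM at 2 days. The 2 groups were far apart for both genes, with log2 fold changes of -0.55 and -0.83. Ncl, the gene of nucleolin, had 1429 and 1342 CPM in serum and 701 and 677 CPM at 2 days (-1.01 ± 0.07 SE, adjusted p = 3.91e-10), and the serotonin receptor gene Htr3a fell by 0.66. Hsp90ab1 had 7372 and 6747 CPM in serum and 6159 and 6234 CPM at 2 days, groups that do not overlap but lie close, and its fall (-0.19 ± 0.06 SE, adjusted p = 0.00671) did not pass the threshold without the first serum library, at -0.12 (adjusted p = 0.132).

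The largest rise was in Nptx1, which encodes the secreted synaptic protein neuronal pentraxin 1. It had 0.354 and 0.482 CPM in serum and 31.6 and 38.3 CPM at 2 days. The serum libraries were near 0 and both 2-day libraries above 30, a log2 fold change of 6.35 ± 0.19 (SE, adjusted p = 1.16e-15). Myo7a, an unconventional myosin gene, had 0.512 and 0.111 CPM in serum and 18.5 and 22.5 CPM at 2 days (6.03 ± 0.33 SE, adjusted p = 5.62e-12), and Tdo2, which encodes tryptophan 2,3-dioxygenase, had 0.473 and 0.852 CPM in serum and 19.3 and 16.8 CPM at 2 days (4.74 ± 0.21 SE, adjusted p = 2.95e-13). Both were low in every serum library and high in both 2-day libraries. Kbtbd11, Smpd3, P2ry6, Rab27a, Ccdc177 and Cbfa2t3 rose by 3.57 (Cbfa2t3) to 4.58 (Kbtbd11). Plk2, a kinase gene induced by neuronal activity and by p53, had 10.9 and 12.6 CPM in serum and 167 and 145 CPM at 2 days, and its 2-day values were all higher (3.73 ± 0.10 SE, adjusted p = 2.58e-16). By difference in CPM the rises were led by Scd2 and Scd1, which encode stearoyl-CoA desaturases, Fn1, which encodes fibronectin, Cd9, a tetraspanin gene, Gnas, the stimulatory G protein gene, and Map1b, a microtubule-associated protein gene. Scd2 had 1968 and 1969 CPM in serum and 4532 and 4471 CPM at 2 days, Fn1 1075 and 1135 CPM in serum and 2622 and 2742 CPM at 2 days and Cd9 1006 and 981 CPM in serum and 2522 and 2544 CPM at 2 days.

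**Figure D2:**
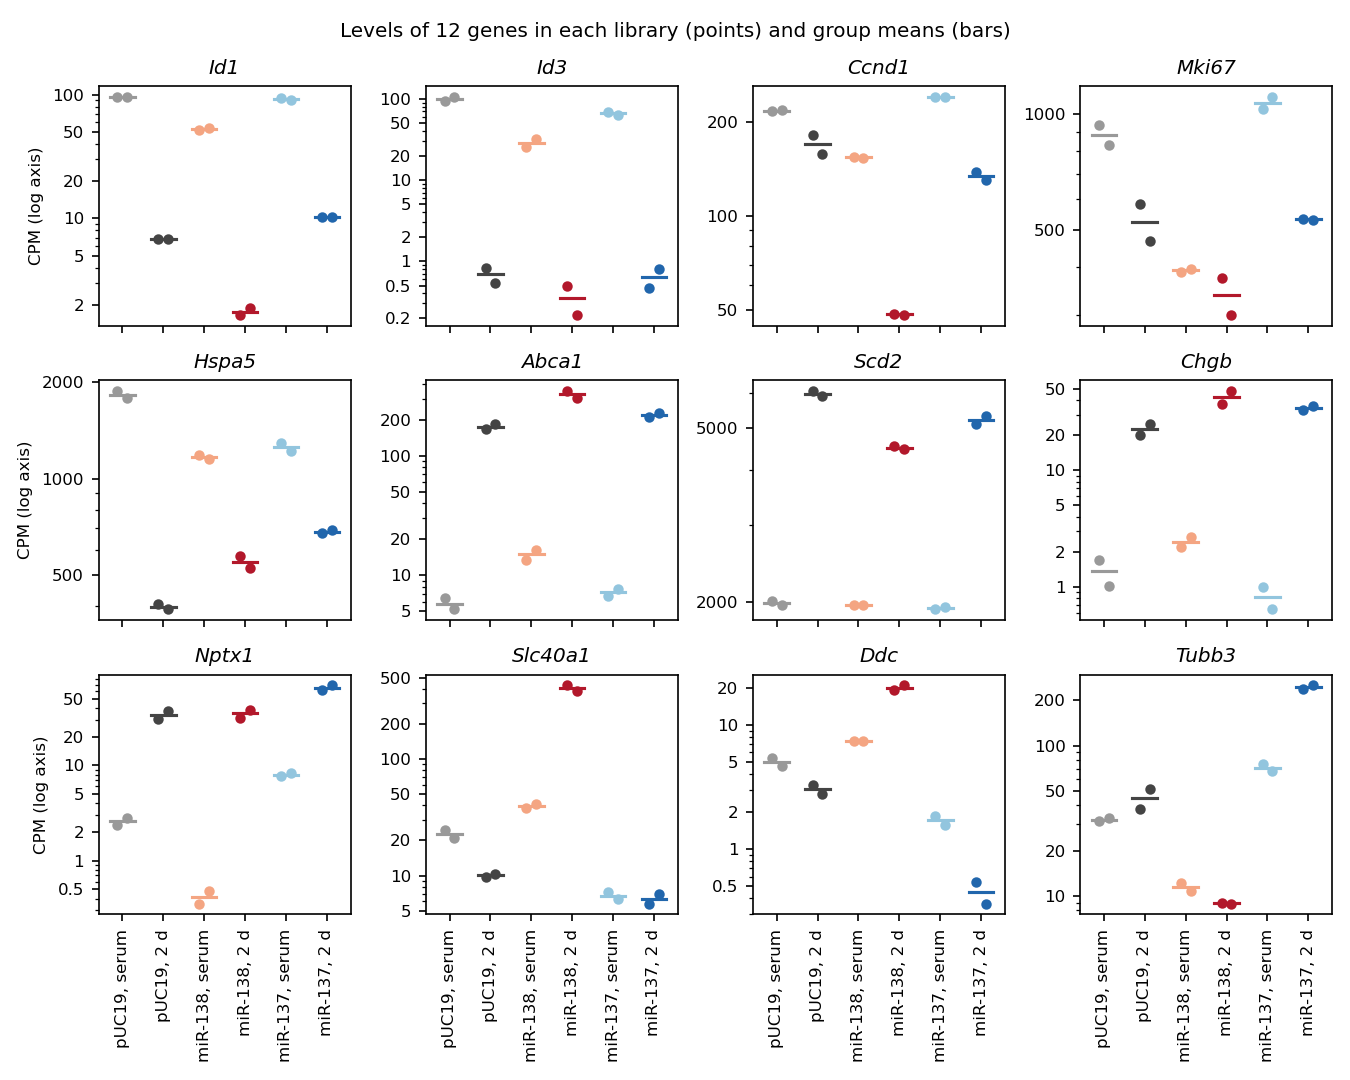
CPM on a log axis of 12 genes in each of the 12 transfected libraries (points) with the group means (bars), by transfection and time (serum, or 2 d after withdrawal). Id1 falls from 51.6 and 53.4 to 1.66 and 1.87 CPM with miR-138, and Slc40a1 lies at 429 and 381 CPM in the miR-138 libraries at 2 d and lower in the other 10 libraries.

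Genes of DNA replication fell as a group. All 36 tested members fell (32.2% of all genes fell), with a median log2 fold change of -0.72. Cdc6 had 44.1 and 44.5 CPM in serum and 18.8 and 18.0 CPM at 2 days. The serum libraries were the higher in each pairing of libraries (-1.26 ± 0.11 SE, adjusted p = 3.59e-09). Uhrf1, a maintenance factor of DNA methylation, had 134 and 121 CPM in serum and 70.4 and 68.3 CPM at 2 days (-0.88 ± 0.08 SE, adjusted p = 5.9e-09), and Mcm2, a subunit gene of the replicative helicase, had 193 and 182 CPM in serum and 100.2 and 83.9 CPM at 2 days (-1.02 ± 0.10 SE, adjusted p = 1.37e-08). Ccne1, the gene of cyclin E1, fell by 1.19, Pcna, the gene of the polymerase clamp, by 0.83 and Rrm1, a ribonucleotide reductase gene, by 0.76. Under pUC19 34 of the 36 fell (31.3% of all genes fell), with a median of -0.64. The responses differed between miR-138 and pUC19 for 1 member in the upward direction and 5 in the downward direction, against 13.3% and 14.5% of all genes. These counts turned on the pUC19 libraries at 2 days, with 7 higher and 2 lower without the first of them and 0 higher and 10 lower without the second. The downward count was 3 without the first miR-138 serum library or either miR-138 library at 2 days. Under miR-137 all 36 fell (median -0.94). The response with miR-138 was higher than with miR-137 for 14 of them, 8 without the second miR-138 serum library or the second miR-137 library at 2 days and 6 without the first miR-138 library at 2 days, and lower for 2.

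The fall started from a lower level with miR-138. Before withdrawal, 35 of the 36 DNA replication genes already lay below their level in the pUC19 serum libraries, with a median log2 level difference of -0.75 (all genes tested, 0.03). Summed over the list, the level was 3235 to 3361 CPM in serum and 1882 to 2059 CPM at 2 days with miR-138, and 5886 to 6017 and 3265 to 4009.7 CPM with pUC19. The miR-138 libraries in serum thus lay close to the pUC19 libraries without serum, and those without serum lay below all others. Whether the whole culture had less of these RNAs per cell or fewer cells were in S phase cannot be told apart in bulk RNA, which holds for every group of genes below.

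Mitotic genes fell less. Of 35 tested, 23 fell and 1 rose, with a median of -0.27. Plk1, the polo kinase gene, had 136 and 135 CPM in serum and 101 and 86.9 CPM at 2 days (-0.53 ± 0.08 SE, adjusted p = 5.19e-06), and Cdc20 had 49.6 and 49.7 CPM in serum and 37.1 and 31.2 CPM at 2 days (-0.54 ± 0.08 SE, adjusted p = 5.08e-06). For both, the serum libraries were the higher. Kif23, Aurka and Bub1b fell by 0.61, 0.51 and 0.57, and Mybl2, a transcription factor gene of the cell cycle, by 0.94. Mki67, the gene of the proliferation marker Ki-67, had 388 and 395 CPM in serum and 375 and 299.6 CPM at 2 days, where the groups do not overlap but the first 2-day library lies near the serum values. Its log2 fold change was -0.21 ± 0.09 (SE, adjusted p = 0.0512), and without that 2-day library -0.38 (adjusted p = 0.00271). Under pUC19 Mki67 had 939 and 829.9 CPM in serum and 581 and 467 CPM at 2 days, 31 of the 35 mitotic genes fell, and the median was -0.41. In serum all 35 mitotic genes lay below their pUC19 level with miR-138, with a median of -0.67, and the sum over the list was 4419.8 to 4568 CPM against 7336 to 7696 CPM. The response with miR-138 was higher than with pUC19 for 7 of the 35 mitotic genes and lower for 0 (13.3% and 14.5% of all genes). The first of these counts was 4 without the first miR-138 library at 2 days and 14 without the first pUC19 library at 2 days. Under miR-137 33 of the 35 fell and 0 rose (median -0.73), and the response with miR-138 was higher than that for 26 and lower for 0 (13.9% and 16.9% of all genes). Without the first miR-138 library at 2 days 16 were higher.

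Among the regulators of the G1 phase, Ccnd1, the gene of cyclin D1 and a reported miR-138 target, had 155 and 153 CPM in serum and 48.7 and 48.3 CPM at 2 days. Its replicates were nearly equal and the groups far apart (-1.67 ± 0.06 SE, adjusted p = 2.89e-14). Under pUC19 it had 216 and 218 CPM in serum and 182 and 159 CPM at 2 days, and the fall with miR-138 was larger by -1.31 ± 0.09 (SE, adjusted p = 2.45e-09). Cdkn1a, the gene of the CDK inhibitor p21, fell from 13.3 and 15.3 to 5.03 and 6.55 CPM (-1.32 ± 0.17 SE, adjusted p = 1.24e-06), while Cdkn1b, the gene of p27, rose from 152 and 151 to 188 and 205 CPM (0.37 ± 0.05 SE, adjusted p = 4.34e-06). Ccng2, a cyclin gene of resting cells, rose by 2.61. The retinoblastoma gene Rb1 had 53.2 and 52.2 CPM in serum and 82.6 and 74.1 CPM at 2 days and rose (0.57 ± 0.07 SE, adjusted p = 2.46e-07), whereas under pUC19 it had 43.8 and 41.5 CPM in serum and 33.4 and 34.7 CPM at 2 days and fell (-0.33 ± 0.07 SE, adjusted p = 0.000756). Of the 15 genes tested in the G1 list 5 rose and 7 fell (31.1% and 32.2% of all genes).

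The MYC genes moved apart from the pUC19 response. Mycn, the MYC gene of neuroblastoma, had 104 and 107 CPM in serum and 39.8 and 42.0 CPM at 2 days with miR-138 and 69.5 and 74.5 CPM in serum and 103 and 114 CPM at 2 days with pUC19. It was high in serum with miR-138 and low at 2 days, with the reverse order under pUC19. The log2 fold changes were -1.37 ± 0.07 (SE, adjusted p = 2.67e-12) and 0.60 ± 0.07 (SE, adjusted p = 2.91e-07), and their difference was -1.97 ± 0.10 (SE, adjusted p = 6.14e-11). Myc had 172 and 174 CPM in serum and 168 and 182 CPM at 2 days, overlapping groups with a log2 fold change of 0.02 ± 0.06 (SE, adjusted p = 0.78), and 254 and 271 CPM in serum and 464 and 488 CPM at 2 days under pUC19, where it rose (0.86 ± 0.06 SE, adjusted p = 1.07e-10). The MYC antagonist genes Mxi1, Mxd4 and Mxd1 rose with miR-138 by 1.13, 1.28 and 0.62. In all 6 of 12 genes of this list rose and 3 fell (31.1% and 32.2% of all genes).

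Neuronal genes rose in part. In the list of synapse and dense-core granule genes 16 of 22 rose and 2 fell (31.1% and 32.2% of all genes), with a median of 0.67. Chgb, the gene of the granule protein secretogranin 1, had 2.21 and 2.67 CPM in serum and 36.9 and 47.7 CPM at 2 days, an increase in both 2-day libraries over both serum libraries (4.11 ± 0.17 SE, adjusted p = 7.4e-14). Syt1, the calcium sensor gene of vesicle release, had 130.5 and 133 CPM in serum and 353 and 349.7 CPM at 2 days (1.42 ± 0.06 SE, adjusted p = 5.73e-14), and Sv2c, a vesicle glycoprotein gene, had 29.1 and 29.6 CPM in serum and 122 and 135 CPM at 2 days (2.13 ± 0.08 SE, adjusted p = 4.12e-14). Vamp2, the synaptobrevin gene, had 22.3 and 23.1 CPM in serum and 43.9 and 45.8 CPM at 2 days and rose (0.98 ± 0.09 SE, adjusted p = 5.73e-09), while under pUC19 it had 30.5 and 25.3 CPM in serum and 25.9 and 26.9 CPM at 2 days (-0.09 ± 0.09 SE, adjusted p = 0.403). Sncg, the gene of gamma-synuclein, rose from 10.5 and 12.8 to 24.3 and 33.8 CPM with miR-138 and fell from 28.3 and 27.1 to 19.8 and 22.3 CPM with pUC19. The responses of Vamp2 and Sncg differed by 1.07 ± 0.13 (SE, adjusted p = 3.83e-06) and 1.71 ± 0.17 (SE, adjusted p = 5.92e-07). Under pUC19 12 of the 22 rose (28.4% of all genes) and 4 fell (2 without the first pUC19 library at 2 days). The median with pUC19 was 0.67, like that with miR-138. The response with miR-138 was higher than with pUC19 for 4 and lower for 1 (13.3% and 14.5% of all genes). For 17 of the 22 the difference did not pass the threshold. With miR-137 18 of the 22 rose and 1 fell (median 1.12), and the response with miR-138 was higher than that for 1 and lower for 9.

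In the list of neuronal cytoskeleton genes 17 of 24 rose and 2 fell with miR-138, and 11 rose and 6 fell with pUC19. Stmn2, the gene of a tubulin-binding protein of growth cones, had 10.4 and 9.23 CPM in serum and 26.7 and 32.5 CPM at 2 days (1.59 ± 0.13 SE, adjusted p = 2.88e-09) with miR-138 and 5.35 and 5.89 CPM in serum and 3.25 and 4.97 CPM at 2 days with pUC19, and the responses differed by 2.05 ± 0.24 (SE, adjusted p = 4.01e-06). Basp1, a growth cone membrane gene, rose by 0.50 with miR-138 and fell by 0.40 with pUC19. Dpysl2, which encodes the axon growth protein CRMP2, rose by 0.52, and Tubb2b, a beta-tubulin gene, by 0.61. Kif5c, a kinesin gene, fell by 0.43. Tubb3, the neuronal beta-tubulin gene often used as a marker, did not follow the others. It had 12.1 and 10.8 CPM in serum and 8.95 and 8.86 CPM at 2 days with miR-138, 31.4 and 32.9 CPM in serum and 37.8 and 51.6 CPM at 2 days with pUC19 and 75.0 and 67.3 CPM in serum and 237 and 252 CPM at 2 days with miR-137. It was lower without serum with miR-138 (-0.36 ± 0.15 SE, adjusted p = 0.0442) and higher in the other cells (0.47 ± 0.11 (SE, adjusted p = 0.000928) with pUC19 and 1.78 ± 0.09 (SE, adjusted p = 3.48e-12) with miR-137). The fall with miR-138 did not pass the threshold without the first serum library (-0.27, adjusted p = 0.21) or without the first (-0.36, adjusted p = 0.147) or the second 2-day library (-0.34, adjusted p = 0.145). Nor did the rise with pUC19 without the second pUC19 library at 2 days (0.23, adjusted p = 0.0509). The difference of the miR-138 and pUC19 responses was -0.83 ± 0.18 (SE, adjusted p = 0.0024). In this list the responses were higher with miR-138 than with pUC19 for 10 genes and lower for 2, and the first count was 6 without the first pUC19 serum library. With miR-137 17 of the 24 rose and 3 fell (median 0.57), and the response with miR-138 was higher than that for 6 and lower for 7. The count of higher responses against miR-137 was 3 without the second miR-138 serum library.

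Ion channel and receptor genes were among the largest rises. Scn3a, a sodium channel gene of developing neurons, had 2.48 and 2.67 CPM in serum and 39.5 and 31.8 CPM at 2 days, high in both 2-day libraries (3.79 ± 0.15 SE, adjusted p = 6.31e-14). Gria2, an AMPA receptor subunit gene, had 1.46 and 0.556 CPM in serum and 12.1 and 13.5 CPM at 2 days (3.67 ± 0.26 SE, adjusted p = 2.81e-10). The nicotinic acetylcholine receptor genes Chrna3, Chrnb4 and Chrna5, which lie in 1 cluster and form the ganglionic receptor, rose by 3.04, 2.96 and 1.70. Chrna3 had 31.6 and 33.4 CPM in serum and 247 and 289 CPM at 2 days and Chrnb4 2.13 and 3.00 CPM in serum and 19.7 and 20.5 CPM at 2 days. Cacna2d1, a calcium channel subunit gene, rose by 5.76. Altogether 15 of 23 channel and receptor genes rose and 4 fell with miR-138 (median 0.52). With pUC19 12 rose and 4 fell, and the median was much the same (0.56). The response was higher than with pUC19 for 7 and lower for 1 (13.3% and 14.5% of all genes), with the difference for Scn3a at 2.29 ± 0.30 (SE, adjusted p = 1.38e-05). The first of these counts was 4 without the first pUC19 library at 2 days. With miR-137 15 of the 23 rose and 1 fell (median 0.78), and the response with miR-138 was higher than that for 2 and lower for 7.

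Of 30 axon guidance and adhesion genes 13 rose and 6 fell (31.1% and 32.2% of all genes). With pUC19 12 rose and 9 fell, and with miR-137 16 rose and 5 fell. Sema6a, a semaphorin gene, had 50.0 and 53.4 CPM in serum and 159.8 and 159 CPM at 2 days (1.62 ± 0.06 SE, adjusted p = 7.91e-15), and Cntn1, the contactin gene, had 8.74 and 8.64 CPM in serum and 46.1 and 45.9 CPM at 2 days (2.40 ± 0.11 SE, adjusted p = 3.11e-13). Slit2, Efna5 and Nrp1 rose by 1.24, 1.13 and 1.005, while the neurexin gene Nrxn2 fell by 1.74. Of the catecholamine genes 6 of 12 rose and 4 fell (2 without the second serum library or without the first 2-day library). Ddc, the gene of the decarboxylase that makes dopamine, had 7.36 and 7.38 CPM in serum and 19.0 and 20.8 CPM at 2 days with miR-138, 5.41 and 4.63 CPM in serum and 3.31 and 2.79 CPM at 2 days with pUC19 and 1.86 and 1.57 CPM in serum and 0.543 and 0.363 CPM at 2 days with miR-137. It was higher at 2 days with miR-138 and lower at 2 days in the other cells. The difference from the pUC19 response was 2.16 ± 0.21 (SE, adjusted p = 4.72e-07) and from the miR-137 response 3.35 ± 0.36 (SE, adjusted p = 1.38e-06). Ddc was the only 1 of the 12 catecholamine genes whose response differed from that with pUC19. In this list 4 rose and 4 fell with pUC19, and 6 rose and 5 fell with miR-137. The response with miR-138 was higher than with miR-137 for 4 and lower for 3. Ache, the acetylcholinesterase gene, which was counted in this list, rose by 2.01, and Dbh by 0.92 (adjusted p = 0.000257). Qdpr, which recycles the cofactor of tyrosine hydroxylase, rose by 0.86, and Spr, of the synthesis of that cofactor, fell by 0.45.

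Among the Notch and proneural genes Hes1, a Notch effector that represses neuronal differentiation, had 21.7 and 21.0 CPM in serum and 8.52 and 7.99 CPM at 2 days with miR-138 and 33.6 and 37.5 CPM in serum and 40.5 and 36.3 CPM at 2 days with pUC19. The 2-day libraries with miR-138 were the lowest of these (-1.37 ± 0.10 SE, adjusted p = 4.92e-10), and the response differed from that with pUC19 by -1.49 ± 0.13 (SE, adjusted p = 9.78e-08). Sox4 rose by 0.80 and Hand2 by 0.66. Phox2a, a noradrenergic transcription factor gene, fell from 407 and 448 to 182 and 235 CPM (-1.04 ± 0.09 SE, adjusted p = 2.71e-09), and Gata2, another noradrenergic factor gene, by 1.05. In this list 9 of 20 rose and 5 fell (31.1% and 32.2% of all genes).

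**Figure D3:**
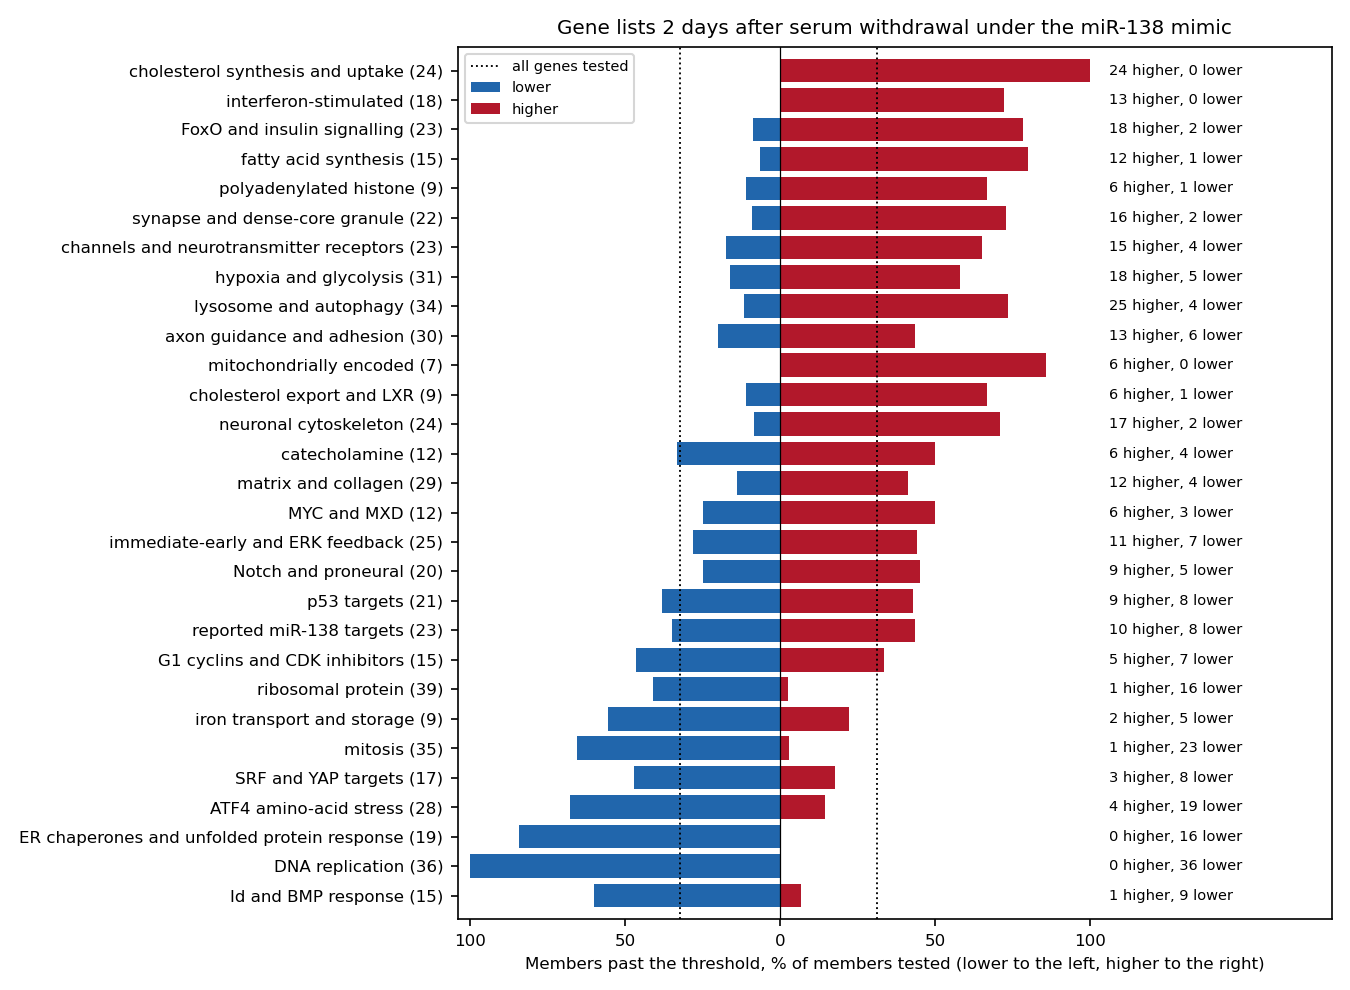
For each gene list, the percent of tested members that rose (right) and fell (left) on withdrawal under miR-138, with the counts beside the bars and the background over all genes tested (31.1% higher, 32.2% lower) as dotted lines. The cholesterol list has 24 of 24 members higher and the DNA replication list 36 of 36 lower.

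All 24 tested genes of cholesterol synthesis and uptake rose, with a median of 1.32. Hsd17b7, a sterol reductase gene, had 104 and 98.5 CPM in serum and 318 and 310.0 CPM at 2 days (1.63 ± 0.06 SE, adjusted p = 7.91e-15), and Pmvk, the phosphomevalonate kinase gene, had 66.7 and 68.2 CPM in serum and 321 and 401 CPM at 2 days (2.42 ± 0.08 SE, adjusted p = 8.48e-15). The groups were well apart for both. Lss, Cyp51, Msmo1 and Dhcr7, which encode other enzymes of the pathway, rose by 1.91, 1.64, 1.69 and 1.496. The summed level went from 3268 to 3275 to 7621 to 7819 CPM. Under pUC19 24 of 24 rose, with a median of 1.54 and sums of 3226 to 3324 and 8119 to 9122 CPM. The response was lower with miR-138 than with pUC19 for 7 of them and higher for 2 (14.5% and 13.3% of all genes). The first count was 13 without the first pUC19 library at 2 days and the second count 1 without any one of 6 libraries. With miR-137 23 of the 24 rose and 0 fell (median 1.69). The response with miR-138 was higher than that for 1 and lower for 17 (13.9% and 16.9% of all genes). A smaller rise with miR-138 was thus seen for most of the list against miR-137, and for 7 of the 24 against pUC19.

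Fatty acid synthesis genes rose in 12 of 15 cases and fell in 1. Scd1 had 498 and 507 CPM in serum and 1867 and 1776 CPM at 2 days, with both 2-day libraries higher (1.86 ± 0.05 SE, adjusted p = 5.35e-16). Elovl6, an elongase gene, Fads2, a desaturase gene, and Acly, the ATP citrate lyase gene, rose by 1.24, 0.94 and 0.85. Lpin1, a phosphatidate phosphatase gene, had 43.1 and 42.0 CPM in serum and 129 and 134 CPM at 2 days with miR-138 and 20.4 and 24.8 CPM in serum and 159.7 and 202 CPM at 2 days with pUC19, and its response was lower with miR-138 (-1.38 ± 0.14 SE, adjusted p = 5.49e-07). The response was lower with miR-138 than with pUC19 for 10 of the 15 and higher for 0, and lower than with miR-137 for 8. Abca1, the cholesterol exporter gene and a target of the sterol sensor LXR, rose together with the synthesis genes. It had 13.5 and 16.4 CPM in serum and 347 and 305 CPM at 2 days (4.45 ± 0.10 SE, adjusted p = 1.3e-17). Under pUC19 it rose as well (4.90). In the list of cholesterol export and LXR genes 6 of 9 rose, among them the lysosomal cholesterol carrier gene Npc2 at 1.08, and Apoe fell by 0.77. 

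ER chaperone genes fell, less than with pUC19 and in more cases than with miR-137. Of 19 tested, 16 fell and 0 rose with miR-138 (median -0.50), and 19 fell and 0 rose with pUC19 (median -1.09). Hspa5, the gene of the chaperone BiP whose promoter is printed above, had 1187 and 1150.5 CPM in serum and 575 and 526 CPM at 2 days with miR-138 and 1869.8 and 1779 CPM in serum and 408 and 392 CPM at 2 days with pUC19. Its serum level was the higher with pUC19 and its 2-day level the lower. The log2 fold changes were -1.09 ± 0.06 (SE, adjusted p = 3.82e-12) and -2.19 ± 0.06 (SE, adjusted p = 2.81e-16), and their difference 1.10 ± 0.08 (SE, adjusted p = 1.18e-08). Hyou1, a chaperone gene, had 839.5 and 817 CPM in serum and 437 and 389 CPM at 2 days (-1.004 ± 0.06 SE, adjusted p = 1.02e-11), and Creld2 had 101 and 99.7 CPM in serum and 54.9 and 48.2 CPM at 2 days (-0.96 ± 0.07 SE, adjusted p = 7.11e-10). Herpud1, a degradation factor gene, Xbp1, a transcription factor gene of the unfolded protein response, and Pdia4 fell by 0.80, 0.63 and 0.52. The response with miR-138 was higher than with pUC19 for 18 of the 19 and lower for 0 (13.3% and 14.5% of all genes). In serum all 19 lay below their pUC19 level with miR-138 (median -0.31). So did 18 with miR-137 (median -0.36) and 18 in the serum libraries labelled DKO_2, with no transfection named (median -0.41). The lower serum level was thus not particular to miR-138, and the pUC19 serum libraries had the highest median. At 2 days the medians against pUC19 in serum were -0.80 with miR-138 and -1.09 with pUC19. With miR-137 the fall was smaller again: 12 fell and 2 rose (33.2% of all genes rose and 32.6% fell in that comparison), with a median of -0.29. The response with miR-138 was higher than with miR-137 for 3 and lower for 8. The first of these counts was 1 without the second miR-138 serum library, the first miR-137 serum library, the first miR-138 library at 2 days or the second miR-137 library at 2 days, and the second was 5 without the last of these.

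The amino-acid stress genes controlled by ATF4 also fell less with miR-138 than with pUC19, and less again with miR-137. With miR-138 19 of 28 fell and 4 rose (median -0.31), and with pUC19 23 fell and 2 rose (median -0.80). The falls started from unlike levels. Against pUC19 in serum, the median serum level was -0.43 with miR-138, -0.33 with miR-137 and -0.38 in the DKO_2 libraries, which have no transfection named. At 2 days it was -0.89 with miR-138, -0.80 with pUC19 and -0.36 with miR-137. Slc7a11, the cystine transporter gene, had 50.4 and 55.4 CPM in serum and 15.8 and 14.2 CPM at 2 days (-1.82 ± 0.09 SE, adjusted p = 2.57e-12), and Shmt2, the mitochondrial serine hydroxymethyltransferase gene, had 197 and 195 CPM in serum and 83.5 and 84.7 CPM at 2 days (-1.22 ± 0.06 SE, adjusted p = 4.52e-13). The serum libraries were the higher for both. Slc7a5, Aars and Slc7a1 fell by 1.12, 0.66 and 0.57, and Cth, a gene of cysteine synthesis, rose by 0.83. The response was higher with miR-138 than with pUC19 for 17 of the list and lower for 1, the latter Shmt2 (-0.40 ± 0.08 SE, adjusted p = 0.000851). With miR-137 11 of the 28 rose and 11 fell (median -0.05), and the response with miR-138 was higher than that for 0 and lower for 11 (17 with library totals alone as the scaling).

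Lysosome and autophagy genes rose in 25 of 34 cases and fell in 4 (median 0.49), against 20 and 9 with pUC19 (median 0.21). Grn, the progranulin gene, had 95.5 and 98.7 CPM in serum and 208 and 219 CPM at 2 days (1.14 ± 0.06 SE, adjusted p = 7.98e-12). Map1lc3b, which encodes an LC3 protein of the autophagosome, had 31.0 and 31.7 CPM in serum and 64.5 and 69.0 CPM at 2 days with miR-138 and 35.8 and 39.3 CPM in serum and 40.8 and 45.2 CPM at 2 days with pUC19, with a difference of responses of 0.89 ± 0.11 (SE, adjusted p = 4.49e-06). Ctsl, a cathepsin gene, and Laptm4a rose by 0.92 and 0.80, and Sqstm1, the gene of the autophagy receptor p62, fell by 0.91. The response was higher than with pUC19 for 14 and lower for 0. With miR-137 28 of the 34 rose and 5 fell (median 0.57), and the response with miR-138 was higher than that for 4 and lower for 12, so the larger rise was seen against pUC19 and not against miR-137.

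Hypoxia and glycolysis genes rose in fewer cases with miR-138 than in the other cells: 18 of 31 rose and 5 fell (3 without the second serum library), while 27 rose and 0 fell with pUC19 and 29 rose and 0 fell with miR-137. Pdk1, the gene of a kinase that turns off pyruvate dehydrogenase and a reported miR-138 target, had 16.6 and 15.3 CPM in serum and 46.4 and 52.5 CPM at 2 days with miR-138 and 7.32 and 8.56 CPM in serum and 62.4 and 69.3 CPM at 2 days with pUC19. It rose in both (1.63 and 3.06), and less with miR-138 (-1.43 ± 0.14 SE, adjusted p = 4.56e-07). Aldoc, an aldolase gene, had 16.97 and 17.9 CPM in serum and 95.4 and 124 CPM at 2 days (2.65 ± 0.11 SE, adjusted p = 1.4e-13), and Bnip3, a mitophagy receptor gene, had 26.0 and 27.5 CPM in serum and 86.4 and 85.5 CPM at 2 days (1.68 ± 0.07 SE, adjusted p = 8.53e-14). Tpi1 and Bhlhe40 rose by 0.90 and 1.62. The response was lower with miR-138 than with pUC19 for 18 of the 31 and higher for 1, and lower than with miR-137 for 18 and higher for 0 (16.9% and 13.9% of all genes).

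FoxO targets and insulin signalling genes, which respond to the loss of growth factors, rose in 18 of 23 cases and fell in 2 (median 0.94, and 0.86 with pUC19). Txnip, which encodes an inhibitor of thioredoxin, had 4.61 and 4.67 CPM in serum and 22.3 and 27.0 CPM at 2 days, and Pik3ip1, an inhibitor gene of PI3 kinase, had 14.8 and 15.6 CPM in serum and 47.3 and 61.1 CPM at 2 days. Both rose in both libraries, by 2.40 and 1.83, as did Btg1 (1.38), Ddit4 (1.07) and Cited2 (0.94). Of the immediate-early and ERK feedback genes 11 of 25 rose and 7 fell (31.1% and 32.2% of all genes). Spry1, a feedback inhibitor of ERK signalling, had 10.9 and 9.30 CPM in serum and 35.8 and 33.1 CPM at 2 days with miR-138 and 13.0 and 11.5 CPM in serum and 85.1 and 85.4 CPM at 2 days with pUC19, and its response was lower with miR-138 (-1.02 ± 0.13 SE, adjusted p = 8.16e-06). Dusp6, an ERK phosphatase gene, rose by 1.41, Fosl2 by 1.12 and Egr1 by 1.01. The response was lower than with pUC19 for 10 and higher for 7 genes of this list (14.5% and 13.3% of all genes). The latter count was 4 without the first pUC19 library at 2 days. The response was lower than with miR-137 for 12 and higher for 1 (16.9% and 13.9% of all genes). Of the SRF and YAP targets, genes of the actin cytoskeleton and cell spreading, 8 of 17 fell and 3 rose: Tagln2 fell by 1.82, Flna by 0.84 and Cnn2 by 0.70, and Thbs1 and Axl rose by 1.86 and 1.10. 

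Iron genes held the largest departure from the pUC19 response at a high level. Slc40a1, the gene of the iron exporter ferroportin, had 37.8 and 40.9 CPM in serum and 429 and 381 CPM at 2 days with miR-138, 24.6 and 20.9 CPM in serum and 9.74 and 10.3 CPM at 2 days with pUC19 and 7.18 and 6.28 CPM in serum and 5.74 and 6.90 CPM at 2 days with miR-137. Of these 12 libraries, those with miR-138 and no serum were the highest by far, and it rose in them (3.36 ± 0.08 SE, adjusted p = 1.84e-17) while it fell with pUC19 (-1.20 ± 0.11 SE, adjusted p = 2.58e-08). The difference of responses was 4.56 ± 0.13 (SE, adjusted p = 1.17e-14) against pUC19 and 3.45 ± 0.18 (SE, adjusted p = 1.23e-10) against miR-137. Tfrc, the transferrin receptor gene, had 533 and 526 CPM in serum and 479 and 428 CPM at 2 days with miR-138 and 575 and 530.0 CPM in serum and 829.8 and 742 CPM at 2 days with pUC19. It fell with miR-138 (-0.22 ± 0.07 SE, adjusted p = 0.00749), not past the threshold without the second 2-day library (-0.14, adjusted p = 0.145), and rose with pUC19 (0.51), with a difference of -0.73 ± 0.10 (SE, adjusted p = 1.38e-05). Ftl1, the ferritin light chain gene, had 138.4 and 122 CPM in serum and 35.6 and 37.5 CPM at 2 days (-1.83 ± 0.08 SE, adjusted p = 1.66e-13), and Slc11a2, an iron importer gene, fell by 0.22 and Ireb2, which encodes an iron regulatory protein, rose by 0.25. In the list 5 of 9 fell and 2 rose (32.2% and 31.1% of all genes).

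The p53 target list was split, with 9 of 21 higher and 8 lower (31.1% and 32.2% of all genes). Trp53inp1 rose by 2.96 and Sesn1 by 0.97, while Aen, Phlda3 and Plk3 fell by 1.39, 1.21 and 0.99. Interferon-stimulated genes rose in 13 of 18 cases and fell in 0 (31.1% and 32.2% of all genes), with a median of 1.285. Stat2, a signal transducer gene of interferon, had 69.4 and 68.6 CPM in serum and 161 and 183 CPM at 2 days (1.32 ± 0.07 SE, adjusted p = 1.39e-12), and Parp14 had 1.77 and 1.89 CPM in serum and 13.3 and 16.2 CPM at 2 days (3.00 ± 0.17 SE, adjusted p = 9.28e-12). Irf7 had 0.236 and 0.185 CPM in serum and 2.51 and 4.11 CPM at 2 days and Usp18 0.158 and 0.111 CPM in serum and 3.98 and 4.25 CPM at 2 days, low in serum and higher in both 2-day libraries. Ddx58, the gene of the RNA sensor RIG-I, rose by 1.25 and Irf1 by 0.84. With pUC19 9 rose and 1 fell (median 0.935), and with miR-137 13 rose and 0 fell (median 1.445). The response with miR-138 was higher than with pUC19 for 5 and lower for 2, and higher than with miR-137 for 2 and lower for 1.

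Of 29 extracellular matrix genes 12 rose and 4 fell with miR-138 (31.1% and 32.2% of all genes), 12 rose and 3 fell with pUC19, and 19 rose and 1 fell with miR-137. The rises with the lowest adjusted p were those of Fn1 (1.28), the laminin gene Lamb2 (0.83), the protease inhibitor gene Timp2 (0.71) and Dcn, the decorin gene. Dcn had 8.51 and 7.12 CPM in serum and 33.4 and 30.5 CPM at 2 days, and it is also in the list of fibroblast markers. That list summed to 10.7 to 12.9 CPM in serum and 38.8 to 39.2 CPM at 2 days, mostly Dcn, with 3 of its 9 markers at 0 in serum and 2 at 0 without serum. The glial markers summed to 4.37 to 5.49 CPM in serum and 17.7 to 18.8 CPM at 2 days, mostly Aqp4, the water channel gene, which went from 1.06 and 1.67 to 14.3 and 14.9 CPM, and 4 of the 11 were at 0. The blood and endothelial markers summed to 16.1 to 16.3 CPM and 25.9 to 27.1 CPM, with 3 of 8 at 0, and those of epithelium and muscle to 183 CPM and 322 to 328 CPM, with 5 of 10 at 0. The muscle marker Myh3 made up nearly all of the last sum (183 and 182 CPM in serum and 321 and 327 CPM at 2 days), and the endothelial marker Pecam1 rose by 0.73. The part of other cell types in the rises of matrix, glial or interferon genes was not tested.

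Of 39 ribosomal protein genes 16 fell and 1 rose with miR-138 (32.2% and 31.1% of all genes), with a median of -0.15, and 23 fell and 0 rose with miR-137 (median -0.31), while with pUC19 13 rose and 8 fell (5 without the first pUC19 serum library and 4 without the second pUC19 library at 2 days). Rpl10a had 66.4 and 62.8 CPM in serum and 28.4 and 31.5 CPM at 2 days (-1.11 ± 0.11 SE, adjusted p = 4.59e-08), and Rpl8, Rpl28 and Rps2 fell by 0.51, 0.96 and 0.51. The number that fell was 9 without the first 2-day library, and the number that rose was 7 without the second serum library. Several of these genes have processed pseudogenes, and how reads were split among the copies is uncertain. Mitochondrially encoded genes rose in 6 of 7 cases with miR-138 and in 1 with pUC19. The pUC19 count was 4 with no count filter, 3 with the compared libraries alone, and 2 with a replicate block or without the first pUC19 library at 2 days. With miR-137 1 rose and 2 fell. The response with miR-138 was higher than with pUC19 for 3 of the 7, a count that ran from 0 to 6 over the alternatives. The subunit gene mt-Co1 had 2876 and 3074 CPM in serum and 5711 and 5522 CPM at 2 days (0.92 ± 0.13 SE, adjusted p = 5.33e-06). Histone genes whose transcripts can be polyadenylated rose in 6 of 9 cases and fell in 1 with miR-138. With pUC19 1 rose and 3 fell, and with miR-137 4 rose and 2 fell. The response with miR-138 was higher than with pUC19 for 3 of the 9 and lower for 1 (13.3% and 14.5% of all genes). Against miR-137 it was also higher for 3 and lower for 1 (13.9% and 16.9% of all genes). Hist1h1c, a linker histone gene, had 53.4 and 48.8 CPM in serum and 101 and 122 CPM at 2 days with miR-138 and 18.8 and 19.2 CPM in serum and 12.0 and 11.4 CPM at 2 days with pUC19. It was higher with miR-138 in serum already, and higher again without serum, with a difference of responses of 1.82 ± 0.15 (SE, adjusted p = 6.07e-08). For Hist1h2bc, which behaved alike, the difference was 1.75 ± 0.18 (SE, adjusted p = 7.02e-07).

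**Figure D4:**
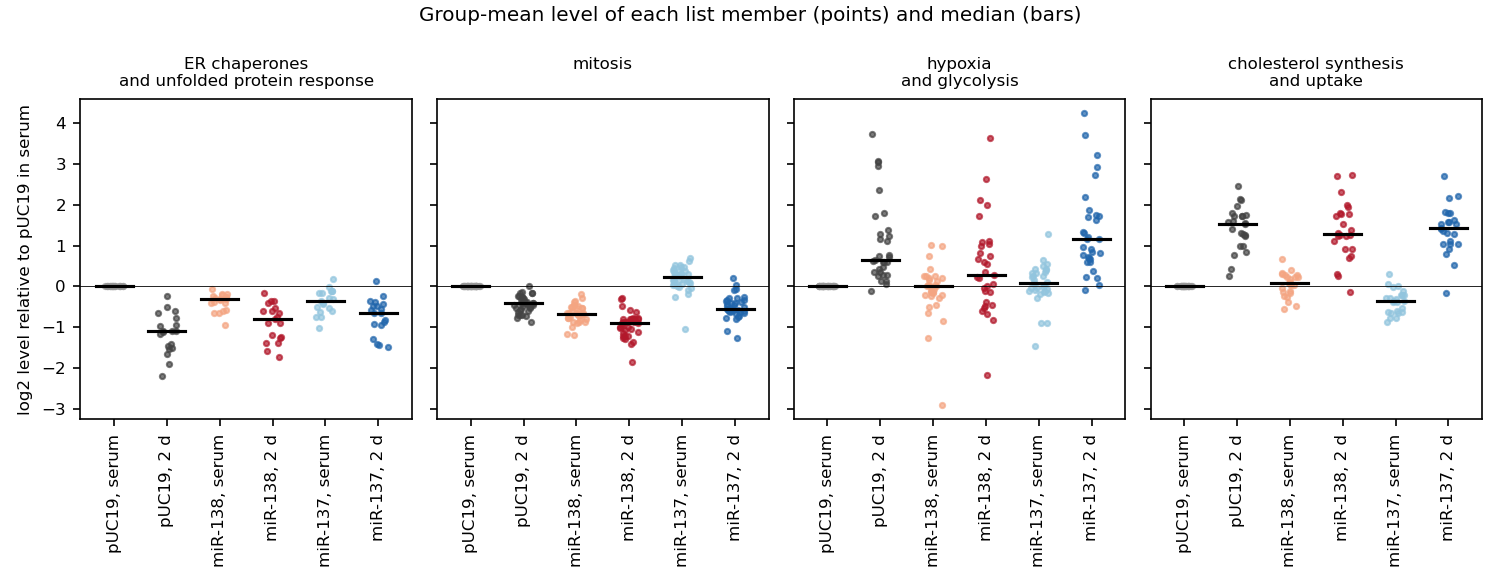
Log2 level of each member of 4 gene lists relative to its mean in the pUC19 serum libraries (points, group means of 2 libraries) and the median over the list (bars), by transfection and time. The median of the ER chaperone list at 2 days is -0.80 with miR-138 and -1.09 with pUC19, and that of the mitosis list -0.88 and -0.41.

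Reported targets of miR-138 stood lower with the mimic before withdrawal. In serum 19 of the 23 measured (25 listed) lay below their level in the pUC19 serum libraries, with a median of -0.66, where 47.6% of all genes lay below and the median was 0.03. At 2 days 16 of them lay below that level (median -0.68), and in the pUC19 libraries at 2 days 15 lay below it, with a median of -0.13. Rhoc had 46.6 and 45.0 CPM in serum and 61.0 and 72.7 CPM at 2 days with miR-138 and 108 and 108 CPM in serum and 85.9 and 91.1 CPM at 2 days with pUC19, and Lypla1 had 71.6 and 72.2 CPM in serum and 71.3 and 68.9 CPM at 2 days with miR-138 and 145 and 126 CPM in serum and 127 and 109.5 CPM at 2 days with pUC19. Vim, the vimentin gene, had 2008 and 1909.5 CPM in serum and 1557 and 1716 CPM at 2 days with miR-138 and 3323 and 3448 CPM in serum and 1864 and 2026 CPM at 2 days with pUC19. For all 3 genes the miR-138 libraries lay below the pUC19 libraries at the same time.

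On withdrawal itself the reported targets did not move one way. With miR-138 10 of 23 rose and 8 fell (31.1% and 32.2% of all genes), with a median of 0.07. With pUC19 8 rose and 10 fell (median -0.13). Rhoc rose with miR-138 (0.54 ± 0.07 SE, adjusted p = 1.96e-06) and fell with pUC19 (-0.29 ± 0.07 SE, adjusted p = 0.00116), and the difference was 0.83 ± 0.10 (SE, adjusted p = 4.69e-06). Lypla1 had a log2 fold change of -0.04 ± 0.08 (SE, adjusted p = 0.704), and Vim fell by 0.26 with a difference from pUC19 of 0.54 ± 0.09 (SE, adjusted p = 0.000104). Ccnd1, Ptk2, the focal adhesion kinase gene, Ezh2, a histone methyltransferase gene, and Limk1, a kinase gene of actin turnover, fell by 1.67, 0.54, 0.48 and 0.59. Gnai2, an inhibitory G protein gene, Sox4 and Hif1a, the hypoxia factor gene, rose by 0.56, 0.80 and 0.34. The response was higher with miR-138 than with pUC19 for 6 of the 23 and lower for 6 (13.3% and 14.5% of all genes).

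**Figure D5:**
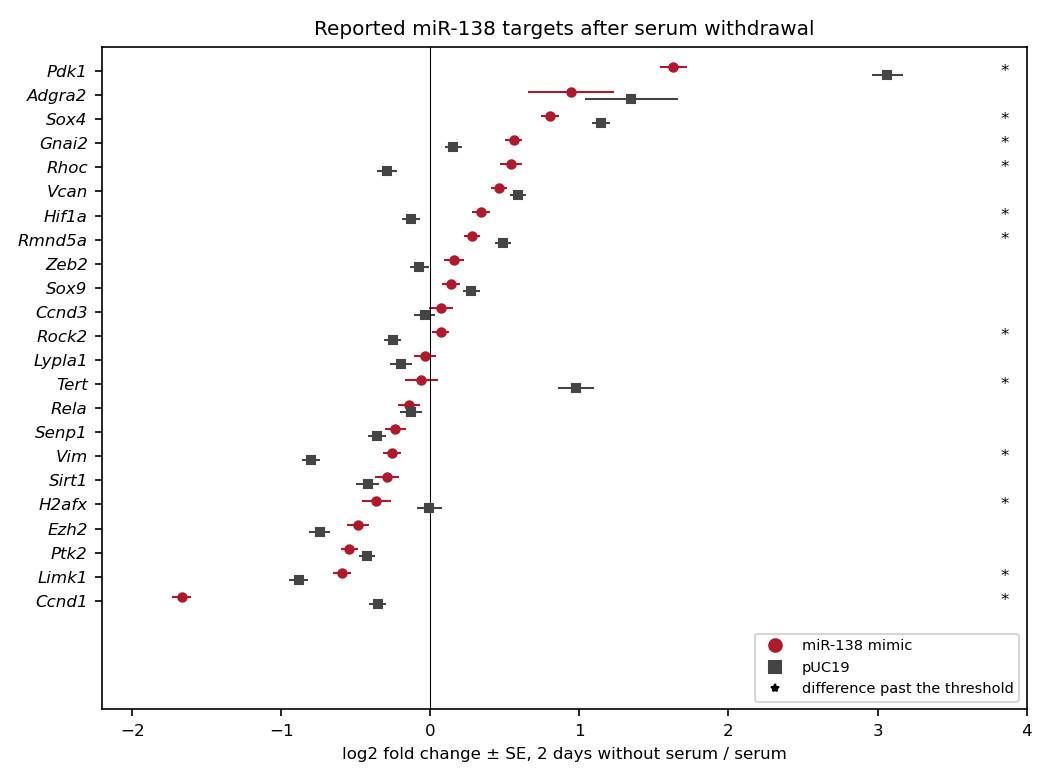
Log2 fold change on withdrawal with its SE for the 23 reported miR-138 targets measured, with miR-138 (red circles) and pUC19 (grey squares); stars mark the 12 genes whose responses differed at an adjusted p under 0.05. Pdk1 (1.63) and Ccnd1 (-1.67) have the largest rise and fall with miR-138.

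Across all genes the response to withdrawal differed between miR-138 and pUC19 for 3522 genes (27.8%), 1684 with a higher response under miR-138 (13.3%) and 1838 with a lower one (14.5%). Of the 1684, 965 rose with miR-138, 265 fell and 454 did not pass the threshold there, and 165 rose with miR-138 and fell with pUC19. Of the 1838, 350 rose, 1113 fell and 375 did not pass, and 144 fell with miR-138 and rose with pUC19. Against the miR-137 response 3900 genes differed (30.8%), 1763 of them higher (13.9%) and 2137 lower (16.9%). Higher responses made up 45.2% of these calls and 31.9% when libraries were scaled by their totals alone, an alternative chosen after seeing the data that moves the all-gene median of this difference from -0.018 to -0.089. These 2 differences share the miR-138 libraries, so they are not independent of each other.

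Several genes responded in these cells and hardly in the others. Elfn1, the gene of a synaptic organiser, had 6.85 and 7.19 CPM in serum and 43.2 and 45.4 CPM at 2 days with miR-138, 5.46 and 5.58 CPM in serum and 5.02 and 4.90 CPM at 2 days with pUC19 and 5.52 and 8.21 CPM in serum and 5.43 and 6.39 CPM at 2 days with miR-137. The miR-138 libraries without serum were the highest and the other libraries lay close together, and the response was higher by 2.81 ± 0.21 (SE, adjusted p = 1.7e-08) than with pUC19. Kif26b, a kinesin-like gene, had 2.21 and 3.30 CPM in serum and 18.0 and 21.1 CPM at 2 days with miR-138 and 4.92 and 6.44 CPM in serum and 6.32 and 6.19 CPM at 2 days with pUC19 (difference 2.65 ± 0.28 SE, adjusted p = 1.06e-06). Upp1, the uridine phosphorylase gene, had 7.52 and 8.64 CPM in serum and 0.981 and 1.44 CPM at 2 days with miR-138, 10.1 and 13.1 CPM in serum and 8.74 and 11.3 CPM at 2 days with pUC19 and 11.0 and 10.2 CPM in serum and 11.9 and 12.3 CPM at 2 days with miR-137, so that the low values were those with miR-138 and no serum (difference from pUC19 -2.55 ± 0.28 SE, adjusted p = 1.63e-06).

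Other genes rose in the reference cells and less with miR-138. Rgs4, the gene of a regulator of G protein signalling, had 38.7 and 37.0 CPM in serum and 54.2 and 62.6 CPM at 2 days with miR-138, 14.7 and 12.1 CPM in serum and 94.9 and 114 CPM at 2 days with pUC19 and 25.6 and 24.8 CPM in serum and 247 and 271 CPM at 2 days with miR-137. It rose in all 3 (0.62, 2.94 and 3.36), least with miR-138 (difference from pUC19 -2.32 ± 0.14 SE, adjusted p = 1.28e-09). Kcnt1, a potassium channel gene, had 0.276 and 0.259 CPM in serum and 1.59 and 1.37 CPM at 2 days with miR-138 and 0.71 and 1.02 CPM in serum and 17.2 and 22.0 CPM at 2 days with pUC19, and its difference of -2.09 ± 0.55 (SE, adjusted p = 0.0075) did not pass the threshold without the first miR-138 serum library, at -2.06 (adjusted p = 0.0542). Ptprn, the gene of a dense-core granule protein, fell with miR-138, from 29.9 and 30.6 to 5.70 and 6.84 CPM, and rose with miR-137, from 56.9 and 53.8 to 122 and 133 CPM. It also fell with pUC19 (-1.54), and the difference from the miR-137 response was -3.47 ± 0.16 (SE, adjusted p = 2.96e-11).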

How the data were processed

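PolyA RNA of 14 libraries of the third experiment was measured with stranded libraries and single-end reads of 50 bp. Per the labels, the deposited values are counts of reads per gene. The submitters' processing notes name STAR and the mm9 build, and neither tool versions nor the annotation are given in the sources used here. The deposited counts of column 4 were used. The opposite strand (column 3) took 3.24 to 3.67% of gene-assigned reads of both columns, and reads that named no gene were left out. Of 37310 gene identifiers 32620 (87.4%) matched a symbol.

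All 14 libraries (7 groups of 2, 7 residual degrees of freedom) were fitted with edgeR 4.0.16 in R 4.3.3, with filterByExpr (minimum count 10, minimum total count 15), TMM scaling and the two-sided quasi-likelihood test. The seventh group, 2 serum libraries labelled DKO_2 with no transfection named, entered the fit for the estimate of spread only. Its serum levels are also given for the ER chaperone and ATF4 lists. P-values were adjusted by Benjamini-Hochberg over the 12655 genes tested in each of 5 comparisons: withdrawal under miR-138, pUC19 and miR-137, and the differences of the miR-138 response from the other two. CPM are counts per 1e+06 reads of the TMM-scaled library, and log2 fold changes carry standard errors (SE). On simulated counts of 12655 genes for the miR-138 comparison, 200 genes with a mean of at least 5 CPM were changed. Of these, 100% of 2-fold and 92% of 1.5-fold changes were recovered, and 7.2% of all calls were false. Far fewer genes changed there than were called in the data (63.3%), and changes in genes under 5 CPM were not simulated. The figures therefore do not give the false share or the recovery of low genes in the data. Figures were drawn with matplotlib 3.10.9.

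Named are, per direction, the 14 largest log2 changes and 6 largest changes in CPM on withdrawal with miR-138, and the 6 largest of each difference of responses (mean of at least 5 CPM, groups not overlapping, no predicted gene names, not mitochondrially encoded). Of each gene list up to 6 members are named, lowest adjusted p first, along with the reported miR-138 targets and some markers, and 2 genes of these lists are not reported here. The comparison, the gene lists and this rule were chosen with earlier results of these data known. Alternatives were RLE scaling, library totals alone, DESeq2 1.42.0, no count filter, unstranded counts (column 2), a replicate block, a fit of the compared libraries alone and leaving out each library in turn. The design text speaks of triplicate transfections and the protocol of duplicate ones, and 2 libraries per group were analysed.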

Additional observations from a re-analysis of the deposited data

Results flagged for a closer look

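The values in this section are differences between 2 responses to serum withdrawal, on the log2 scale from edgeR's interaction term, for the genes with the largest differences. They are single values from 2 libraries per group, and no explanation was tested.

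With miR-138 the response exceeded that with pUC19 for the myosin gene Myo7a by 5.01 (adjusted p = 0.000426), for the iron exporter gene Slc40a1 by 4.56 (adjusted p = 1.17e-14) and for the synaptic organiser gene Elfn1 by 2.81 (adjusted p = 1.7e-08). It was higher for Tdo2 by 2.79 (adjusted p = 7.17e-05), for Kif26b by 2.65 (adjusted p = 1.06e-06) and for the pentraxin gene Nptx1 by 2.63 (adjusted p = 1.25e-05). Without serum, Nptx1 had about the same level in both (31.6 and 38.3 CPM with miR-138 and 30.6 and 37.2 CPM with pUC19), and the serum libraries differed (0.354 and 0.482 CPM against 2.35 and 2.83 CPM). Against pUC19 it was lower for the uridine phosphorylase gene Upp1, at -2.55 (adjusted p = 1.63e-06), for Rgs4, at -2.32 (adjusted p = 1.28e-09), and for Kcnt1, at -2.09 (adjusted p = 0.0075). It was lower for Optc, at -2.03 (adjusted p = 4.69e-05), for the synaptic adhesion gene Lgi1, at -1.98 (adjusted p = 0.000975), and for Mycn, at -1.97 (adjusted p = 6.14e-11).

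With miR-138 the response exceeded that with miR-137 for Slc40a1 by 3.45 (adjusted p = 1.23e-10), for the decarboxylase gene Ddc by 3.35 (adjusted p = 1.38e-06) and for Nptx1 by 3.32 (adjusted p = 6.82e-08). It was higher for Elfn1 by 2.86 (adjusted p = 8.44e-09), for Tdo2 by 2.78 (adjusted p = 0.00184) and for Kif26b by 2.23 (adjusted p = 4.65e-06). Against miR-137 it was lower for the granule protein gene Ptprn, at -3.47 (adjusted p = 2.96e-11), for Upp1, at -2.94 (adjusted p = 2.21e-07), and for Rgs4, at -2.74 (adjusted p = 3.43e-11). It was lower for the ERK phosphatase gene Dusp5, at -2.41 (adjusted p = 2.63e-07), for the acetylcholinesterase gene Ache, at -2.30 (adjusted p = 0.000236), and for Mr1, at -2.23 (adjusted p = 1.74e-05). Both sets of differences use the same miR-138 libraries.

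Calls that turned on 1 library or setting among these were few. The difference from pUC19 for Kcnt1 was -2.06 (adjusted p = 0.0542) without the first miR-138 serum library.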

How the results depend on the processing

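The number of genes that changed on withdrawal with miR-138 (8013) was 6955 with DESeq2, 8067 with no count filter and 6998 to 7297 with 1 of its libraries left out. Under DESeq2 85.8% of the 8013 were called in the same direction, and 84.5 to 87.7% with a library left out. The difference from the pUC19 response (3522 genes) gave 2663 genes with DESeq2 and 2753 to 3256 with a library left out, and that from the miR-137 response (3900 genes) 3142 and 2879 to 3691. Withdrawal under pUC19 gave 6391 to 7129 genes and under miR-137 7213 to 7472 with a library left out. These counts stayed within 1.5 times the reported ones under every alternative run, and no named gene changed direction past the threshold.

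With the replicate number as a block, 8211 genes changed with miR-138, 7721 with pUC19 and 8453 with miR-137, and 3903 and 4303 differed from the pUC19 and miR-137 responses. Deviations of same-numbered libraries correlated at 0.083, 0.004 and 0.013 in the 3 withdrawal comparisons. With 2 libraries per group these values cannot show whether same-numbered libraries belong together. No pairing was used in the reported fit.

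Of the 972 values of named genes with a library left out, 943 kept their call on withdrawal with miR-138, 26 lost it and 3 gained it. The share of higher calls in the difference from miR-137 was 45.2% and 31.9% with library totals alone, and in the difference from pUC19 47.8% and 40.0% with no count filter. Counts of fewer than 5 list members often moved, mostly by 1 or 2, and that of ribosomal protein genes higher with miR-138 moved from 1 to 7 without the second serum library. Depth limits genes under about 1 CPM, such as Th.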

Other observations

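Genes of ribosome biogenesis and targets of NRF2 were chosen as lists only after values were seen, so their counts are descriptions. Ribosome biogenesis genes fell in 30 of 30 cases, with a median of -1.06 (all genes tested, 0.005; 32.2% of all genes fell). Mybbp1a, a nucleolar protein gene, had 689.5 and 685 CPM in serum and 274 and 270.0 CPM at 2 days, and Polr1b, a subunit gene of RNA polymerase I, had 132 and 126 CPM in serum and 56.1 and 51.9 CPM at 2 days. Both 2-day libraries were far below both serum libraries, with log2 fold changes of -1.34 ± 0.06 (SE, adjusted p = 1.17e-13) and -1.26 ± 0.06 (SE, adjusted p = 3.05e-13). Under pUC19 27 of the 30 fell, with a median of -0.54, and Polr1b had 122 and 119.7 CPM in serum and 103 and 99.5 CPM at 2 days. The response was lower with miR-138 than with pUC19 for 25 of the 30 and higher for 0 (14.5% and 13.3% of all genes), with a difference for Polr1b of -1.002 ± 0.08 (SE, adjusted p = 2.08e-08). A fall of similar median was measured with miR-137: 29 of the 30 fell, with a median of -0.98, and the response with miR-138 was lower than that for 6 (10 with library totals alone as the scaling) and higher for 0. Nop2, Rrp12 and Nolc1, which act in rRNA processing, fell by 1.06, 1.75 and 1.15.

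Targets of NRF2, the transcription factor of the oxidative stress response, fell in 22 of 24 cases with miR-138, with a median of -0.81, and in 18 with pUC19, with a median of -0.62. Txnrd1, the thioredoxin reductase gene, had 692 and 677 CPM in serum and 216 and 208 CPM at 2 days (-1.69 ± 0.05 SE, adjusted p = 7.35e-16), and Srxn1, the sulfiredoxin gene, had 77.2 and 80.1 CPM in serum and 23.7 and 23.3 CPM at 2 days (-1.74 ± 0.07 SE, adjusted p = 4.22e-14). The glutathione synthesis gene Gclm and G6pdx, the first enzyme gene of the pentose phosphate pathway, fell by 1.45 and 1.29. With miR-137, Srxn1 went from 60.3 and 59.0 to 52.4 and 53.04 CPM, and the difference of the miR-138 response from it was -1.56 ± 0.10 (SE, adjusted p = 8.61e-10). The response was higher with miR-138 than with pUC19 for 5 of these genes and lower for 8. Hmox1 and Slc7a11, described with the largest falls and the amino-acid genes, are also in this list. With miR-137 14 of the 24 fell and 6 rose (median -0.24), and the response with miR-138 was lower than that for 16 and higher for 1.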
